A study of Mus musculus with 9 samples.

Results

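The response of the mouse heart to isoprenaline (ISO) alone was described across all measured genes, by comparing 3 ISO hearts with 3 untreated control hearts (Ctr), which are 6 of the 9 hearts of the study. ISO mice (1 female and 2 males) received isoprenaline at 30 mg/kg/day from an osmotic minipump for 96 h, whereas Ctr mice (2 females and 1 male) carried no pump and were taken at the start. ISO and Ctr hearts therefore differ in the drug, in pump surgery and in the days on the pump, which cannot be told apart here, and the sexes are unevenly spread over the groups. All 6 mice were C57Bl6N wild types of 2 to 3 months by the labels, and polyadenylated RNA was taken from the ventricles. The members are all genes of the deposited table of ISO and Ctr hearts, with 1 transcript kept per gene symbol, the one with the highest total count. This gave 15232 genes, of which 14039 had enough counts for testing. Library totals over these genes were 11968433 to 13182229 counts in ISO hearts and 10174127 to 11207105 counts in Ctr hearts. The p-values measure the spread between these hearts only.

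Isoprenaline stimulates beta-adrenoceptors, which couple through Gs to adenylyl cyclase, cAMP and protein kinase A. In cardiomyocytes this raises heart rate, contractile force and calcium cycling and loads the cell with energy demand. Sustained stimulation desensitises the receptors, enlarges the myocytes and causes some of them to die, and the damaged tissue is cleared by macrophages and filled by fibroblasts that deposit collagen and other matrix proteins. The adult ventricle burns mostly fatty acids, and its cardiomyocytes divide very rarely, whereas fibroblasts, endothelial cells and macrophages can. In bulk RNA, fewer cells of a type and less RNA per cell cannot be told apart.

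ISO hearts differed from Ctr hearts mainly by genes that were higher. A gene was called where edgeR's quasi-likelihood test gave a Benjamini-Hochberg adjusted p below 0.05 over all genes tested and the log2 fold change was beyond 0.6 in size. By this rule 1461 genes were called higher in ISO hearts (10.4% of those tested) and 443 lower (3.16%). The 3 ISO hearts lay on one side of all 3 Ctr hearts in 43.8% of the genes tested, and in 1442 of the genes called higher and 436 of those called lower. Large changes were mostly increases. A log2 fold change beyond 2 was reached by 271 genes called higher and 15 called lower, and one beyond 4 by 21 genes called higher and 0 called lower. The median log2 fold change was 1.14 over the genes called higher, -0.84 over those called lower and -0.01 over all genes tested. Calls followed the level of expression. Among the 3510 genes of lowest mean level, 17.7% were called higher and 4.02% lower, with a median standard error of 0.27 on the log2 scale, whereas among the 3510 genes of highest level 5.95% were called higher and 3.85% lower, with a median standard error of 0.086. The share of calls that were higher depended on the scaling of the libraries. It was 76.7% with TMM factors, 82.5% with total counts and 95.8% when libraries were scaled to cardiomyocyte markers, which moved the median of all genes to 0.33.

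**Figure D1:**
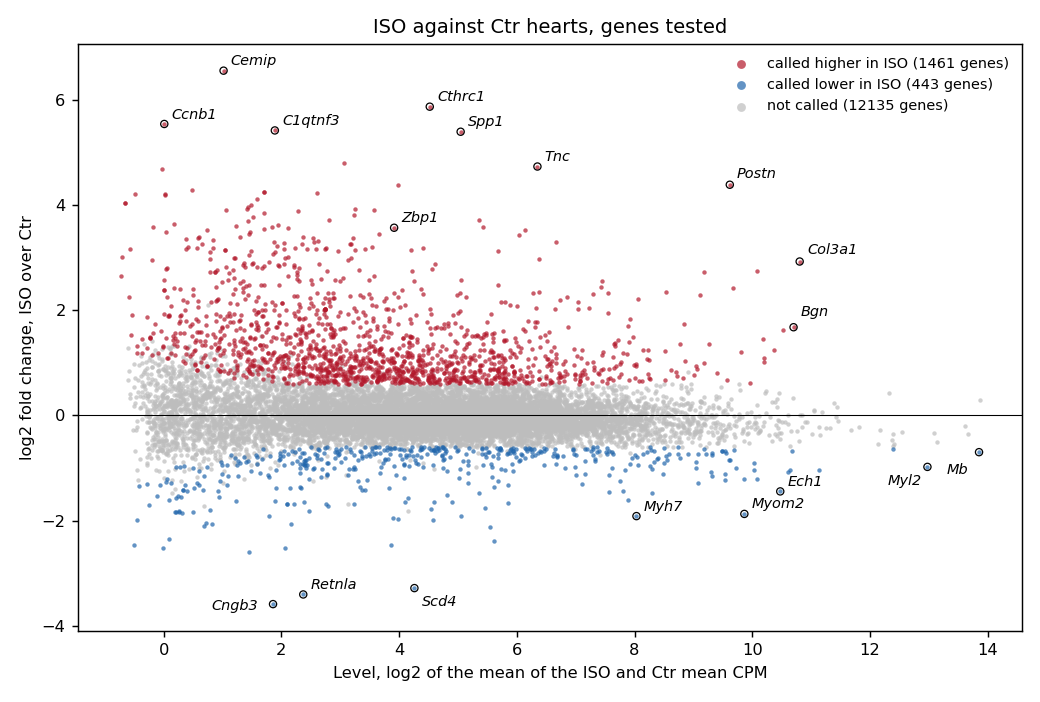
Each point is 1 of the 14039 genes tested in 3 ISO and 3 Ctr hearts, with its level (log2 of mean CPM) on the x axis and its log2 fold change of ISO over Ctr on the y axis, red where called higher in ISO hearts (1461 genes), blue where called lower (443 genes) and grey where not called. Labelled genes are described in the text, and the red points reach further from 0 than the blue points at most levels.

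Genes called higher held 7.41%, 9.31% and 10.2% of the library in ISO hearts (female2, male1, male2, the order used for ISO hearts throughout), against 3.78%, 3.69% and 3.91% in Ctr hearts (female1, female2, male1, the order used for Ctr hearts throughout). Genes called lower held 5.98%, 5.53% and 5.01% in ISO hearts, against 9.96%, 10.1% and 10.03% in Ctr hearts. By construction these shares follow the calls. Of the 50 most abundant genes of Ctr hearts, 0 were called higher and 8 lower. Counts of members called in each gene group below are to be read against the 10.4% higher and 3.16% lower of all genes tested. Levels below are CPM, each count relative to its TMM-normalised library size, folds are ISO over Ctr, errors of log2 fold changes are standard errors and those of means are SD (n = 3 hearts each), and positions are on GRCm38.

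Cthrc1, Postn and Tnc were among the 12 genes with the largest increases, of those with at least 5 CPM and no overlap between the groups. Cthrc1 (chr15:39076932-39087121), a collagen triple helix repeat protein secreted by activated fibroblasts, was at 17.3, 57.8 and 60.3 CPM in ISO hearts, against 0.646, 1.11 and 0.499 CPM in Ctr hearts. Every ISO heart was far above every Ctr heart, with a log2 fold change of 5.88 ± 0.60 (adjusted p = 0.00022). Postn (chr3:54359267-54391041), which encodes periostin, was at 779, 1693 and 2033 CPM in ISO hearts, against 68.5, 70.9 and 75.2 CPM in Ctr hearts, a 20.99-fold increase (log2 fold change 4.39 ± 0.32, adjusted p = 4.2e-05). Tenascin C (Tnc, chr4:63959785-64047015), a matrix glycoprotein of wounds, was at 36.0, 221 and 215 CPM in ISO hearts, against 7.93, 5.62 and 3.99 CPM in Ctr hearts (log2 fold change 4.74 ± 0.66, adjusted p = 0.00093). In Cthrc1, Postn and Tnc the female ISO heart was the lowest of the ISO hearts and still above all Ctr hearts.

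The same held for Spp1 (osteopontin, a cytokine and matrix protein of macrophages), which was at 7.43, 105 and 80.8 CPM in ISO hearts, against 1.94, 1.11 and 1.496 CPM in Ctr hearts. Its log2 fold change was 5.401 ± 0.95 (adjusted p = 0.0029), and with limma-voom the adjusted p was 0.152. Sprr1a, a small proline-rich protein induced in stressed cardiomyocytes, was at 2.58, 23.99 and 22.1 CPM in ISO hearts, against 1.01, 0.0921 and 0.598 CPM in Ctr hearts. The female ISO heart thus stood near the Ctr hearts in Sprr1a, and the log2 fold change of 4.804 ± 0.92 (adjusted p = 0.0045) was 5.54 without Ctr female1 and had an adjusted p of 0.122 with limma-voom. C1qtnf3, a secreted protein related to C1q and TNF, was even among ISO hearts at 6.77, 8.13 and 6.82 CPM, against 0, 0.0921 and 0.399 CPM in Ctr hearts. Its log2 fold change of 5.43 rests on few Ctr counts and was 7.01 without Ctr male1. The other genes in this group were the monocyte chemokine Ccl8 (4.39), the mitotic genes Knl1 (4.26), Melk (4.25) and Ccnb2 (4.24), the little-studied Nxpe5 (4.12, and 4.81 without Ctr female1) and the interleukin 1 receptor antagonist Il1rn (4.01). Some genes had almost no counts in Ctr hearts. Cemip, a hyaluronan-degrading protein, had 151 counts in ISO hearts, against 1 count in Ctr hearts, a ratio of 125 with an exact 95% counting interval of 22.1 to 4960, and Xkr5 had 75 counts, against 3 counts (ratio 20.7, interval 6.80 to 102). Cemip and Xkr5 were named for their few Ctr counts and had enough counts for testing only in ISO hearts, so the ratios are descriptive. Both intervals cover counting error only and not the spread between hearts.

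The largest decreases were smaller and fell on genes of varied function. Cngb3 (chr4:19280850-19510623), a subunit of a cyclic nucleotide-gated channel known from cone photoreceptors, was at 0.515, 0.498 and 0.627 CPM in ISO hearts, against 8.30, 5.62 and 6.18 CPM in Ctr hearts. The groups were clearly apart, with a log2 fold change of -3.59 ± 0.27 (adjusted p = 5.4e-05). Scd4 (chr19:44333326-44346743), the stearoyl-CoA desaturase of the heart, was at 5.15, 4.15 and 1.33 CPM in ISO hearts, against 24.1, 49.8 and 30.4 CPM in Ctr hearts (log2 fold change -3.29 ± 0.39, adjusted p = 0.00043). Retnla, a secreted protein of alternatively activated macrophages, fell by 3.41 on the log2 scale, to 0.332 to 1.25 CPM in ISO hearts, against 7.18 to 14.1 CPM in Ctr hearts. Myh7 (chr14:54970684-54994626), the slow beta isoform of myosin heavy chain, was at 103, 135 and 92.4 CPM in ISO hearts, against 320, 594 and 329 CPM in Ctr hearts. All ISO hearts were below all Ctr hearts, with a 3.77-fold lower level (log2 fold change -1.92 ± 0.24, adjusted p = 0.00057). In the fit of all 9 hearts Myh7 was not called (adjusted p = 0.0548).

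Colq, the collagen tail that anchors acetylcholinesterase, fell by 1.96 on the log2 scale, the secretoglobin Scgb1c1 by 1.98, the transcription repressor Snai3 by 2.06 and the unannotated transcript Gm10635 by 2.53. Timp4, the inhibitor of metalloproteinases typical of the heart, was at 20.3, 14.7 and 12.2 CPM in ISO hearts, against 55.5, 65.0 and 127 CPM in Ctr hearts (log2 fold change -2.38 ± 0.31). A few of these decreases rested on single hearts. Inmt, an indole N-methyltransferase, was at 3.90, 5.06 and 4.47 CPM in ISO hearts, against 7.84, 8.20 and 58.2 CPM in Ctr hearts. Its log2 fold change of -2.46 (adjusted p = 0.034) was -0.84 without Ctr male1 (adjusted p = 0.0146), and the adjusted p was 0.0602 without ISO female2, 0.088 without ISO male1 and 0.101 without ISO male2. Ces1d, a carboxylesterase that hydrolyses stored lipid, was at 38.9, 7.97 and 4.78 CPM in ISO hearts, against 41.98, 88.4 and 97.1 CPM in Ctr hearts. The female ISO heart was close to the lowest Ctr heart, and the log2 fold change was -2.12 (adjusted p = 0.031), -3.58 without ISO female2, and between -1.99 and -1.68 without ISO male1, ISO male2, Ctr female2 or Ctr male1 (adjusted p from 0.0757 to 0.103). The galectins Lgals4 and Lgals6 fell by 1.91 and 1.98, but they are near-identical copies and their counts cannot be told apart with certainty.

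**Figure D2:**
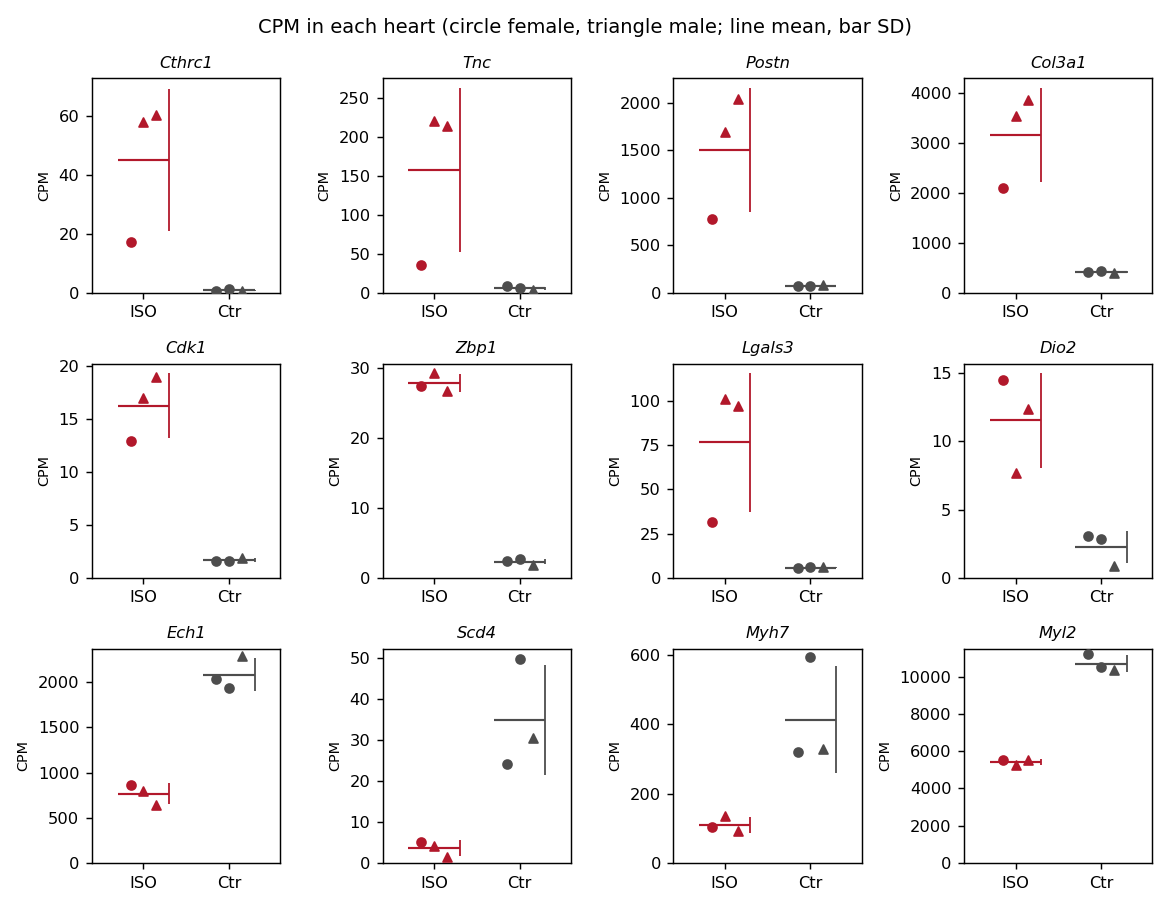
CPM (linear y axes starting at 0) of 12 genes in each of 3 ISO hearts (red, left) and 3 Ctr hearts (grey, right), with circles for females, triangles for males, a line for the mean and a bar for the SD. The groups do not overlap in any of the 12 genes, and the female ISO heart is the lowest ISO heart in Cthrc1, Tnc, Postn, Col3a1, Cdk1 and Lgals3 but not in Zbp1, Dio2, Ech1, Scd4, Myh7 or Myl2.

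The ISO hearts did not respond to the same extent. Each ISO heart in turn was left out of the fit. Its own differences from the Ctr mean were then read on genes it had not helped to choose. The 3 Ctr hearts had helped to choose them, which favours a difference in the called direction. So had the other ISO hearts, which favours larger differences in those hearts. Without ISO female2, 11.7% of the genes tested were called higher and 4% lower. Over the 1604 higher ones that were also tested with all hearts, ISO female2 had a median log2 difference of 0.82, against 1.15 in the other ISO hearts (71.0%), and over the 559 lower ones -0.59, against -0.80. It still moved in the called direction in 99.3% of the genes called higher and lay above all Ctr hearts in 1520 of them. Without ISO male1, 9.09% of the genes tested were called higher and 2.72% lower, and ISO male1 had medians of 1.18 (102% of the other ISO hearts, 1273 genes) and -0.73 (88.9%, 383 genes). Without ISO male2, 8.35% were called higher and 2.31% lower, and ISO male2 had medians of 1.37 (119%, 1176 genes) and -0.94 (114%, 324 genes). On the first principal component of the 1000 most variable genes, which held 79.7% of their variance, ISO hearts scored 18.3, 32.1 and 35.1, against -29.2, -30.7 and -25.7 for Ctr hearts. Sex and the single female ISO heart cannot be told apart in this group.

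ISO female2 was not below the other ISO hearts in every gene group. Over 14 activated fibroblast markers its median log2 difference from the Ctr mean was 2.06, against 3.28 and 3.55 in ISO male1 and ISO male2, and over 10 tested markers of recruited monocytes and lipid-handling macrophages it was 1.37, against 2.81 and 2.67. Over 26 interferon-induced genes, in contrast, it was 1.61, against 1.52 and 1.49. Over 30 genes of mitosis it was the lowest by little, at 2.68, against 2.72 and 3.02. In the fit without ISO female2, 81 genes called higher and 60 called lower had ISO female2 within the range of the Ctr hearts. Those of largest fold included clock genes (below) and the acute-phase protein haptoglobin (Hp), which was at 1.32, 4.15 and 8.54 CPM in ISO hearts, against 1.57, 0.737 and 2.59 CPM in Ctr hearts. The groups overlapped in Hp, and its adjusted p was 0.11 with all hearts.

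**Figure D3:**
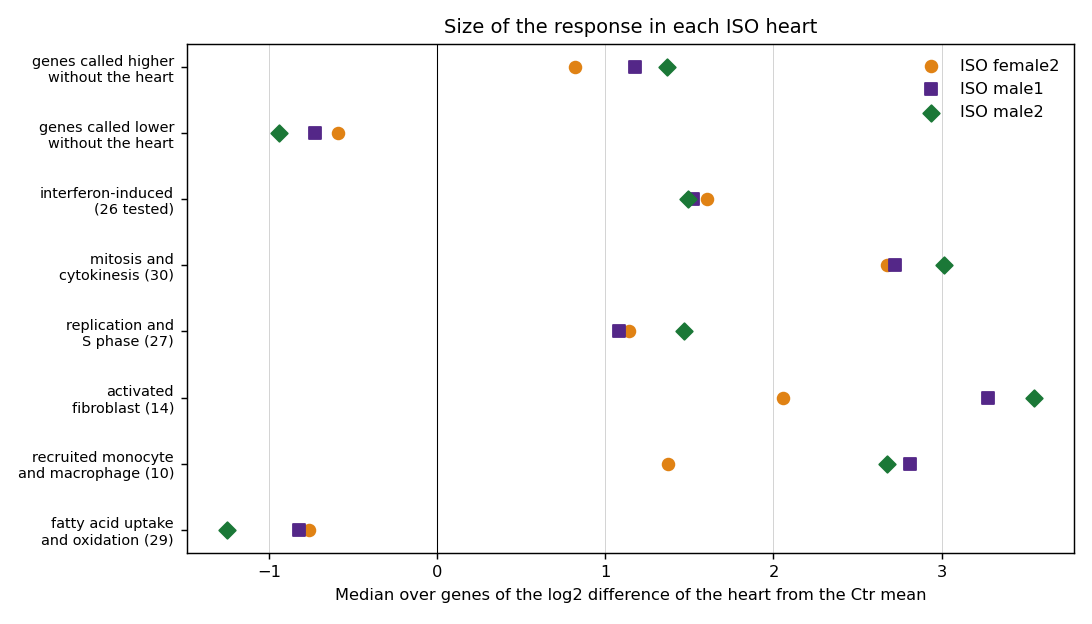
Median log2 difference from the Ctr mean (x axis) in each ISO heart (orange circle female2, purple square male1, green diamond male2), over genes called higher or lower in a fit without that heart and over 6 gene lists with the number of genes tested. ISO female2 is nearest to 0 for the genes called without it and for the activated fibroblast and recruited monocyte lists and, by less, for mitosis and fatty acid oxidation, but not for the interferon-induced genes, where it is highest at 1.61.

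The 8 genes with the largest gain in mean CPM were Col3a1, Bgn, Col1a1, Sparc, Postn, Col1a2, Vim and Clu. Col3a1 (chr1:45311538-45349706), a fibrillar collagen, was at 2090.4, 3548 and 3863 CPM in ISO hearts, against 422, 428 and 396 CPM in Ctr hearts, a gain of 2752 CPM (log2 fold change 2.93 ± 0.21, adjusted p = 3.7e-05). The proteoglycan biglycan (Bgn) gained 1747 CPM with a 3.20-fold increase, the collagen-binding protein Sparc 1503 CPM (3.11-fold) and the mesenchymal filament protein vimentin (Vim) 1085 CPM (2.73-fold). The 8 genes with the largest loss were Mb, Myl2, Tnni3, Gsn, Ech1, Hadha, Idh2 and Myom2. The ventricular myosin light chain Myl2 (chr5:122092724-122113473) was at 5516, 5248 and 5530 CPM in ISO hearts, against 11200, 10526 and 10377 CPM in Ctr hearts (log2 fold change -0.98 ± 0.09, adjusted p = 0.00011). This was a 1.97-fold lower level with very little spread in either group. Myoglobin (Mb), the oxygen store of muscle, averaged 11297 ± 1038 CPM in ISO hearts and 18329 ± 395 CPM in Ctr hearts, although 31.9% of its exon bases overlap another gene and the counting ignored strand. The M-band protein myomesin 2 (Myom2) was 3.66-fold lower and the mitochondrial isocitrate dehydrogenase Idh2 2.06-fold lower. The decrease of the cardiac troponin I gene Tnni3 (log2 fold change -0.64) stood at the threshold, with -0.59 without ISO male2 and -0.60 without Ctr female1.

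Genes of cell division rose together. Of 30 tested genes of mitosis and cytokinesis, 29 were called higher and 0 lower, with a median log2 fold change of 2.97, against -0.01 over all genes tested. Cdk1 (chr10:69335146-69352912), the kinase that drives entry into mitosis, was at 12.9, 16.9 and 18.9 CPM in ISO hearts, against 1.57, 1.57 and 1.89 CPM in Ctr hearts. The ISO hearts were all well above the Ctr hearts, with a 9.64-fold increase (log2 fold change 3.27 ± 0.21, adjusted p = 2.4e-05). Mki67, the proliferation antigen, averaged 43.2 ± 4.60 CPM in ISO hearts and 5.90 ± 2.40 CPM in Ctr hearts. The spindle midzone protein Prc1 rose 11.0-fold, Aurora kinase B (Aurkb) 10.6-fold, the mitotic ubiquitin enzyme Ube2c 7.78-fold and the spindle kinesin Kif11 6.01-fold. Of the exon bases of Ube2c, 22.8% overlap another gene. The cyclin Ccnb1 had 75 counts in ISO hearts, against 1 count in Ctr hearts (ratio 62.0, exact 95% counting interval 10.8 to 2480). It had enough counts for testing only in ISO hearts, and the interval covers counting error only. The member not called was the centromeric histone Cenpa, at 54.5, 53.7 and 57.4 CPM in ISO hearts, against 49.7, 54.2 and 54.0 CPM in Ctr hearts. Without any single heart, 28 or 29 members were called.

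Genes of DNA replication and S phase moved in the same direction by less. Of 27 tested, 22 were called higher and 0 lower, with a median log2 fold change of 1.26. The ribonucleotide reductase subunit Rrm2 was at 10.4, 9.71 and 11.1 CPM in ISO hearts, against 2.77, 2.67 and 2.69 CPM in Ctr hearts (log2 fold change 1.94 ± 0.16). Cyclin A2 (Ccna2) rose 5.28-fold, the chromatin protein Uhrf1 6.01-fold, the helicase subunits Mcm3 2.55-fold and Mcm2 1.96-fold, whereas the replication clamp Pcna had a log2 fold change of 0.44 ± 0.12, below the fold threshold. The transcription factors that govern these programmes rose as well. Foxm1 was at 19.6, 19.5 and 24.1 CPM in ISO hearts, against 1.01, 2.03 and 3.89 CPM in Ctr hearts (log2 fold change 3.20, and 3.79 without Ctr male1), and E2f1 and E2f2 rose 6.09-fold and 4.31-fold. Of 69 cardiac and stress transcription factors, 22 were called higher and 0 lower, against 10.4% and 3.16% of all genes tested.

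The promoters of the mitotic genes are shown because most of them share a pair of elements. Cell cycle genes homology regions (CHR, searched as TTTGAA on both strands) and CCAAT boxes (CCAAT on both strands) are known elements of genes expressed in G2 and M phase. Within 250 bases before and 50 bases after the start, 20 of the 27 list members with a promoter in the RefSeq table held a CHR (74.1%), against 14.2% of the 10985 tested genes with such a window, and 18 held both elements (66.7%, against 6.9%). The bases from 100 to 1 before the start are printed below for Cdc20 (chr4:118437344-118437443, minus strand), Ube2c (chr2:164769829-164769928, plus strand), Cdk1 (chr10:69352913-69353012, minus strand) and Kif11 (chr19:37376282-37376381, plus strand), from RefSeq on GRCm38.p6, with CHR and CCAAT matches on either strand in capitals.
Cdc20: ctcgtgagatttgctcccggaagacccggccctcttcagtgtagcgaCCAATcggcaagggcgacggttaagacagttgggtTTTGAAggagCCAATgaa
Ube2c: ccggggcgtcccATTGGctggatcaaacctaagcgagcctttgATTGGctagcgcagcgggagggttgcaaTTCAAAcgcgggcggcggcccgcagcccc
Cdk1: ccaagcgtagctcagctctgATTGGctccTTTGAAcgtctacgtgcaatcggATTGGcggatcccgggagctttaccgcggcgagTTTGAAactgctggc
Kif11: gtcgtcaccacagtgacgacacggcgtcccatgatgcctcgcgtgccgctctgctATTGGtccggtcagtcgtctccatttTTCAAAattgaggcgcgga
The 4 windows were chosen as examples that hold both elements in the printed bases, so the presence of both is not a result. In each of them a CHR lies within 30 bases of the start, with a CCAAT box on the same or the other strand. They do not stand for the whole list. In Bub1b and Plk1, for example, the only CHR begins after the start, at bases 40 and 30. In the S phase list, 11 of 19 promoters held an E2F site (TTCCCGC or TTGGCGC on either strand, 57.9%), against 13.7% of all. A match is a description of letters and not evidence that a factor bound there.

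Interferon-induced genes rose evenly in the 3 ISO hearts. All 26 tested members of the list were called higher, with log2 fold changes of 0.85 to 3.57 and a median of 1.53, and 26 were called in every fit without 1 heart and under every other setting except the test with the fold threshold built in (glmTreat), for which lists were not counted. Their summed level was 1419, 1402 and 1348 CPM in ISO hearts, against 501, 525 and 469 CPM in Ctr hearts. Zbp1 (chr2:173206612-173218959), a sensor of Z-form nucleic acids, was at 27.4, 29.3 and 26.8 CPM in ISO hearts, against 2.40, 2.67 and 1.89 CPM in Ctr hearts. The 3 ISO hearts differed from each other by less than 3 CPM, and the increase was 11.9-fold (log2 fold change 3.57 ± 0.14, adjusted p = 7.7e-06). Oasl2, of the oligoadenylate synthetase family, was at 106, 104 and 103 CPM in ISO hearts, against 23.6, 27.6 and 22.6 CPM in Ctr hearts (log2 fold change 2.08 ± 0.09, adjusted p = 7.7e-06). The factor Irf7, which drives interferon genes, rose 5.10-fold, the antiviral proteins Ifit3 and Ifit1 4.90-fold and 4.78-fold, and the ubiquitin-like modifier Isg15 4.76-fold. Gbp2, a guanylate-binding protein, was highest in the female ISO heart, at 125, 79.3 and 74.1 CPM in ISO hearts, against 42.1, 37.4 and 41.3 CPM in Ctr hearts. The inducible proteasome subunits Psmb8 (1.66-fold) and Psmb9 (1.75-fold) were the 2 genes called among 43 proteasome genes, and neither was in the fit of all 9 hearts (adjusted p = 0.0701 and 0.0793).

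The interferon-stimulated response element (ISRE, searched as GAAA, any 2 bases, GAAA on either strand) was found in 13 of the 19 list promoters available (68.4%), against 3.81% of all. For 4 members, chosen as examples of promoters with a match, 100 bases are printed, those from 100 to 1 before the start for Isg15 (chr4:156200819-156200918, minus strand), Oas1a (chr5:120907526-120907625, minus strand) and Gbp2 (chr3:142620563-142620662, plus strand) and those from 120 to 21 before it for Ifit1 (chr19:34640769-34640868, plus strand), with ISRE matches in capitals. Oas1a, an oligoadenylate synthetase, rose 4.02-fold, although close copies of the family may share reads, to 9.05, 9.54 and 10.7 CPM in ISO hearts, against 2.31, 3.22 and 1.70 CPM in Ctr hearts.
Isg15: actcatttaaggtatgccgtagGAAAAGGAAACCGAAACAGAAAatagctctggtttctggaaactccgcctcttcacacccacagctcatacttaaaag
Ifit1: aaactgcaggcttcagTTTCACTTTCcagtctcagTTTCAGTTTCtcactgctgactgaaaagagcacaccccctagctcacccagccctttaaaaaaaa
Oas1a: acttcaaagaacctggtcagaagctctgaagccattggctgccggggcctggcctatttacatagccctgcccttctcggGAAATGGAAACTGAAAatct
Gbp2: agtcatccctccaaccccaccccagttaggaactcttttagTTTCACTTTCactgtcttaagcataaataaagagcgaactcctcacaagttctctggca
Isg15 and Oas1a hold overlapping matches, so that their capitals run together.

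Matrix genes rose broadly. Of 43 tested matrix glycoproteins and proteoglycans, 30 were called higher and 0 lower (median log2 fold change 1.47), and of 33 collagen chains, 19 were called higher and 1 lower (median 0.74). Fibronectin (Fn1), the matrix protein on which collagen is assembled, was at 629, 1202 and 1202 CPM in ISO hearts, against 165, 132 and 158 CPM in Ctr hearts (log2 fold change 2.74 ± 0.23, adjusted p = 8.7e-05). The elastic fibre genes Fbn1 (5.12-fold), Eln (3.87-fold) and Mfap4 (5.89-fold), the fibroblast matrix protein Cilp (9.84-fold), thrombospondin 4 (Thbs4, 11.6-fold) and the proteoglycan versican (Vcan, 3.44-fold) all passed the test. Of the exon bases of Fbn1, 20.1% overlap another gene model. Among collagens below the fibrillar ones, Col16a1 rose 3.84-fold and Col18a1 2.67-fold, while the transmembrane collagen Col13a1 was lower at 2.502, 1.58 and 2.51 CPM in ISO hearts, against 3.69, 3.68 and 4.09 CPM in Ctr hearts. The Col13a1 call (adjusted p = 0.033) was lost without any one of ISO male1, ISO male2, Ctr female1, Ctr female2 or Ctr male1, with adjusted p from 0.0529 to 0.107.

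All 5 lysyl oxidases, which cross-link collagen and elastin, were called higher, and 3 were with the replicate number as a block. Lox was at 43.6, 151 and 168 CPM in ISO hearts, against 14.7, 6.45 and 12.5 CPM in Ctr hearts (log2 fold change 3.43 ± 0.49), and Loxl2 was at 143, 179 and 202 CPM, against 28.5, 48.6 and 36.9 CPM. Of 32 ADAM and ADAMTS proteases, 9 were called higher, led by the procollagen peptidase Adamts2 (4.49-fold) and by Adamts8 (8.85-fold), and of 14 matrix metalloproteinases 6, among them the macrophage elastase Mmp12 (14.2-fold), the membrane-type Mmp14 (3.20-fold) and the gelatinase Mmp2 (1.98-fold). Their inhibitors diverged. Timp1 was at 28.1, 102 and 110 CPM in ISO hearts, against 5.44, 8.29 and 5.98 CPM in Ctr hearts (log2 fold change 3.60 ± 0.48), and Timp2 rose 1.70-fold, whereas Timp4 was lower (above).

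Markers of activated fibroblasts rose more than general fibroblast markers. Of 14 activated fibroblast markers, 11 were called higher with a median log2 fold change of 3.21. Of 14 general fibroblast markers, 5 were called higher and 1 lower with a median of 0.32. Both shares called higher were above the 10.4% of all genes. The fibroblast activation protein gene Fap was not called (log2 fold change 0.27, adjusted p = 0.22). Pi16, a marker of progenitor-like fibroblasts, was at 324, 375 and 387 CPM in ISO hearts, against 104, 115 and 113 CPM in Ctr hearts (log2 fold change 1.71 ± 0.09). Decorin (Dcn), an abundant fibroblast proteoglycan, averaged 1449 ± 94.6 CPM in ISO hearts and 1290 ± 194 CPM in Ctr hearts with overlapping groups, and the receptor Pdgfra had a log2 fold change of 0.34 ± 0.10. Gelsolin (Gsn), an actin-severing protein that cardiomyocytes also express, was 2.05-fold lower. The latent TGF-beta binding protein Ltbp2 rose 8.71-fold.

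Secreted growth factors went both ways. Of 60 tested growth factors and hormones, 10 were called higher and 9 lower, with 16 and 5 when libraries were scaled to cardiomyocyte markers. Over all genes tested, 10.4% were called higher and 3.16% lower. Follistatin-like 1 (Fstl1), a glycoprotein of injured myocardium, was at 704, 958 and 1114 CPM in ISO hearts, against 194, 171 and 198 CPM in Ctr hearts (log2 fold change 2.30 ± 0.16), the activin subunit Inhba was at 32.2, 22.7 and 28.1 CPM, against 6.64, 4.51 and 4.69 CPM, and pleiotrophin (Ptn) rose 2.97-fold. The vessel-stabilising angiopoietin Angpt1 (chr15:42424667-42676977) was at 29.1, 28.6 and 24.1 CPM in ISO hearts, against 64.5, 81.4 and 64.8 CPM in Ctr hearts (log2 fold change -1.36 ± 0.12, adjusted p = 9.7e-05). Neuregulin 1 (Nrg1), a paracrine ligand of cardiomyocyte ErbB receptors, was at 4.12, 2.66 and 2.82 CPM in ISO hearts, against 11.4, 6.72 and 12.9 CPM in Ctr hearts, 3.20-fold lower. Fgf1 was 1.76-fold lower (log2 fold change -0.47, under the threshold, with cardiomyocyte scaling) and the neurotrophic factor Gdnf 5.53-fold lower at no more than 0.294 CPM in any ISO heart. Among insulin-like growth factor binding proteins the directions differed by member. Igfbp5 (2.58-fold) and Igfbp7 (1.99-fold) rose, and Igfbp3 was at 31.6, 19.8 and 31.3 CPM in ISO hearts, against 91.1, 82.7 and 90.8 CPM in Ctr hearts. Wnt9b (4.72-fold) and the secreted Wnt inhibitors Sfrp2 (5.57-fold) and Sfrp1 (2.81-fold) were among 6 genes called higher of 23 Wnt and Frizzled genes. Tgfb1 had a log2 fold change of 0.56 ± 0.09 (adjusted p = 0.0025), under the fold threshold, and was at 0.61 without ISO female2 and 0.65 without Ctr male1.

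Genes of macrophages and of recruited monocytes rose. Of 16 macrophage markers 11 were called higher (median log2 fold change 1.27), and of 10 tested markers of recruited monocytes and lipid-handling macrophages 8 (median 2.48). Lgals3 (galectin 3, chr14:47373860-47386167), a lectin of phagocytes, was at 31.4, 100.8 and 97.1 CPM in ISO hearts, against 5.35, 5.89 and 5.98 CPM in Ctr hearts (log2 fold change 3.73 ± 0.42, adjusted p = 0.00036). The scavenger receptor Cd68 was at 76.2, 155 and 158 CPM in ISO hearts, against 26.2, 20.6 and 30.6 CPM in Ctr hearts (5.03-fold), the lipid receptor Trem2 rose 4.52-fold and the monocyte chemokine receptor Ccr2 3.47-fold. Not every marker of long-resident heart macrophages passed the test. Timd4 was at 3.97, 3.82 and 2.74 CPM in ISO hearts, against 4.52, 4.51 and 5.19 CPM in Ctr hearts, and Folr2 at 32.1, 47.0 and 49.1 CPM, against 28.7, 26.5 and 35.8 CPM, and neither passed the test. Itgam rose 3.96-fold, but 68.7% of its exon bases overlap another gene model.

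Receptors and effectors of phagocytes followed. Of 10 Toll-like receptors 8 were called higher, led by the sensor of bacterial ribosomal RNA, Tlr13, at 14.1, 22.0 and 20.1 CPM in ISO hearts, against 2.40, 3.59 and 5.29 CPM in Ctr hearts. Of 6 Fc receptor genes 5 were called higher, among them Fcgr4 (8.99-fold) and Fcgr1 (4.07-fold), and of 18 complement genes 11, among them properdin (Cfp, 3.82-fold), C4b (3.40-fold, whose near-identical copy C4a may share reads) and C1qa (2.51-fold). Of 29 genes of the lysosome and phagocytosis, 20 were called higher, such as the cathepsins Ctss (4.10-fold) and Ctsb (2.03-fold), and 1 lower, the fatty acid transporter Cd36. Among 36 chemokines, interleukins and receptors, 19 were called higher and 3 lower. The monocyte attractants Ccl12 (8.002-fold), Ccl7 (5.998-fold) and Ccl2 (5.06-fold) rose, while the eosinophil attractant Ccl24 was at 3.16, 2.74 and 3.76 CPM in ISO hearts, against 13.5, 7.09 and 11.4 CPM in Ctr hearts (log2 fold change -1.72 ± 0.25). The other lower calls, the eosinophil attractant Ccl11 (adjusted p = 0.024) and Cxcl14 (adjusted p = 0.021), rested on single hearts. Without Ctr male1 the log2 fold change of Ccl11 was -0.93 (adjusted p = 0.0508), and the adjusted p of Cxcl14 was 0.0642. Ccl11 was also lost without ISO male1 (0.0695) or ISO male2 (0.0677), and Cxcl14 without Ctr female1 (0.054).

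Lymphocytes and granulocytes left few counts. Only 5 of 11 neutrophil markers and 2 of 14 T and NK cell markers had enough counts to be tested. Of 7 tested B cell markers 5 were called lower, for example Ms4a1 (CD20) at 0.662, 0.498 and 0.392 CPM in ISO hearts, against 1.85, 1.57 and 2.19 CPM in Ctr hearts (log2 fold change -1.82 ± 0.33). All were under 4 CPM in every heart. Leaving out any 1 heart left 1 to 4 of them called, with 1 called without Ctr male1. Of 5 tested platelet genes 1 was called higher and 1 lower, with 3 lower under the sex covariate. Gp9 was called lower (log2 fold change -2.59, adjusted p = 0.0302), but not with limma-voom (0.174). Its call was also lost without ISO female2, ISO male1, ISO male2, Ctr female1 or Ctr male1 (0.0591 to 0.103). Ppbp, at 4.34, 7.55 and 11.7 CPM in ISO hearts, against 32.7, 3.87 and 46.6 CPM in Ctr hearts, was low in a single Ctr heart and not called (adjusted p = 0.0733). Pf4 was at 53.9, 85.4 and 85.0 CPM in ISO hearts, against 39.5, 24.8 and 41.4 CPM in Ctr hearts. Pf4 is also made by macrophages.

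Many immediate and early genes known to respond to cAMP were higher after 96 h. The level of cAMP was not measured, and what raised these genes was not tested. Of 17 tested immediate and early genes of this kind, 10 were called higher and 0 lower, with a median log2 fold change of 0.90, and leaving out 1 heart left 8 to 11 called. The orphan nuclear receptor Nr4a1 was at 47.9, 65.0 and 46.6 CPM in ISO hearts, against 23.3, 24.6 and 24.03 CPM in Ctr hearts (log2 fold change 1.15 ± 0.13, adjusted p = 0.00037), and Junb and Atf3 rose 1.86-fold and 2.20-fold. Atf3 was not called in the fit of all 9 hearts (adjusted p = 0.0518). Crem, a cAMP-responsive repressor, had a log2 fold change of 0.61 (adjusted p = 0.0061), which was 0.53 without ISO male2 and 0.56 without Ctr male1. Dio2 (chr12:90724552-90739038), the deiodinase that makes active thyroid hormone, had the largest change of the list. It was at 14.5, 7.72 and 12.4 CPM in ISO hearts, against 3.04, 2.86 and 0.897 CPM in Ctr hearts (log2 fold change 2.33 ± 0.36, adjusted p = 0.0016). Its promoter holds a full cAMP response element (CRE, searched as TGACGTCA), an element found in 3 of 14 list promoters (21.4%), against 3.4% of all. CRE was not the only element frequent in the list. MEF2 sites were also found in 3 of the 14 (against 2.41% of all) and E-boxes in 4 (28.6%, against 11.6%). Over all genes called higher, 2.34% of promoters held a CRE. A match is not evidence that a factor bound there. The bases from 120 to 21 before the start (chr12:90739059-90739158, minus strand, RefSeq on GRCm38.p6) are shown with the CRE in capitals.
Dio2: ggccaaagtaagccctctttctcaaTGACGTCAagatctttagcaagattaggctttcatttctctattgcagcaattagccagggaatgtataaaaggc
Of 33 tested genes of adrenoceptors and cAMP signalling, 4 were called higher and 1 lower, with a median of 0.03, near the 10.4% and 3.16% of all genes. All ISO hearts were above all Ctr hearts in 10 of the 33 and below them in 11, against 22.6% and 21.3% of all genes tested. The higher ones were the adenylyl cyclase Adcy7 (2.37-fold), the phosphodiesterase Pde3b (2.07-fold), beta-arrestin 2 (Arrb2, 1.82-fold) and Pde4b. Pde4b had a log2 fold change of 0.64, with 0.54 without ISO female2 and 0.52 without Ctr male1. The beta1-adrenoceptor Adrb1 was at 36.2, 42.2 and 32.4 CPM in ISO hearts, against 47.1, 65.8 and 44.6 CPM in Ctr hearts. Its groups did not overlap and its log2 fold change of -0.51 (adjusted p = 0.037) was under the fold threshold, and it was -0.61 without ISO male1, -0.60 without Ctr male1 and -0.31 without Ctr female2 (adjusted p = 0.12). The alpha1A-adrenoceptor Adra1a was called lower (log2 fold change -0.76, adjusted p = 0.016), with -0.54 without ISO male2 and an adjusted p of 0.0575 without Ctr female1.

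Genes of fatty acid oxidation fell together. Of 29 tested genes of fatty acid uptake and oxidation, 25 were called lower and 0 higher, with a median log2 fold change of -0.97. With libraries scaled to cardiomyocyte markers the median was -0.64 and 14 were called lower. Ech1 (chr7:28825338-28832239), a dienoyl-CoA isomerase, was at 867, 792 and 637 CPM in ISO hearts, against 2033, 1932 and 2289 CPM in Ctr hearts. All ISO hearts were far below all Ctr hearts, 2.72-fold lower on average (log2 fold change -1.45 ± 0.13, adjusted p = 9.7e-05). The trifunctional protein subunit Hadha (2.11-fold lower), the medium-chain dehydrogenase Acadm (2.16-fold lower), the fatty acid binding protein Fabp3 (1.99-fold lower) and Cd36 (1.596-fold lower) showed the same direction. The rate-limiting carnitine palmitoyltransferase Cpt1b was 1.596-fold lower, with a log2 fold change of -0.55 without ISO male2, and 81.4% of its exon bases overlap another gene model. The mitochondrial carrier Slc25a34 fell by 1.43 on the log2 scale, and 5 of 38 mitochondrial carriers were called lower and 1 higher, with 1 lower and 5 higher when libraries were scaled to cardiomyocyte markers.

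Glycolysis genes were called about as often as all genes, of which 10.4% were called higher and 3.16% lower. Of 25 glycolysis genes 2 were called higher and 0 lower. The higher ones were Gapdh and the lactate exporter Slc16a3, at 13.1, 19.6 and 22.4 CPM in ISO hearts, against 4.71, 4.70 and 5.88 CPM in Ctr hearts. The Gapdh count, at most 18.3 CPM, is uncertain because near-identical copies share its reads. Subunits of the respiratory chain had small shifts whose sign depended on scaling. The median log2 fold change was -0.27 over 48 complex I genes, -0.28 over 25 genes of cytochrome c oxidase, -0.21 over 9 of complex III and -0.25 over 16 of ATP synthase, and 0.07, 0.06, 0.13 and 0.09 when libraries were scaled to cardiomyocyte markers. With TMM factors every ISO heart was below every Ctr heart in 30, 14, 4 and 10 of these genes, against 21.3% of all genes tested. Every ISO heart was above in 1, 0, 0 and 0 of them. In these 4 families 3 genes were called lower, Ndufa1 (log2 fold change -0.59 without ISO female2), Ndufb4 (-0.55 without ISO male1 and -0.59 without Ctr male1) and Cox6b2. Of 16 glutathione S-transferases 4 were called lower, among them Gstm1 (1.602-fold lower) and Gstm7 (1.72-fold lower), with 0 called under cardiomyocyte scaling. Aldehyde dehydrogenases were divided. The mitochondrial Aldh2 was 1.598-fold lower, while the retinoic acid enzymes Aldh1a2, at 33.3, 46.5 and 50.4 CPM in ISO hearts, against 19.1, 13.8 and 11.6 CPM in Ctr hearts, and Aldh1a3 (3.68-fold) were higher. Cholesterol handling showed 6 genes called higher of 23, among them the efflux pumps Abca1 (1.89-fold) and Abcg1 (2.36-fold) and the esterifying enzyme Soat1 (2.36-fold).

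Cardiomyocyte markers together took a smaller part of the library in ISO hearts. Their summed level was 95375, 96895 and 86099 CPM in ISO hearts, against 117640, 124540 and 110860 CPM in Ctr hearts, with no overlap. In 9 of the 18 every ISO heart was below every Ctr heart and in 2 above, against 21.3% and 22.6% of all genes tested. Of 18 cardiomyocyte markers 3 were called lower (Myl2, Mb and Tnni3) and 0 higher, and the median log2 fold change was -0.23, or 0.12 when libraries were scaled to those same markers, which left 2 called higher and 1 lower. Alpha myosin heavy chain (Myh6) averaged 11521 ± 2195 CPM in ISO hearts and 14642 ± 1444 CPM in Ctr hearts with overlapping groups (adjusted p = 0.11). Of 17 genes of hypertrophy and stress, 5 were called higher and 2 lower. The LIM protein Fhl1 was at 399, 566 and 578 CPM in ISO hearts, against 194, 249 and 214 CPM in Ctr hearts (log2 fold change 1.23 ± 0.15), and the ubiquitin hydrolase Uchl1 and the matricellular Ccn2 rose 2.23-fold and 2.12-fold. The natriuretic peptide Nppa was at 371, 714 and 991 CPM in ISO hearts, against 308, 379 and 391 CPM in Ctr hearts. The groups overlapped in Nppa, its adjusted p of 0.035 was 0.0577 to 0.121 without any one of ISO male1, ISO male2, Ctr female1, Ctr female2 or Ctr male1, and 61.5% of its exon bases overlap another gene model. Nppb was at 96.9, 189 and 263 CPM in ISO hearts, against 347, 192 and 178 CPM in Ctr hearts, with overlap. The skeletal actin Acta1 overlapped too, at 493, 480 and 867 CPM in ISO hearts, against 167, 359 and 515 CPM in Ctr hearts (log2 fold change 0.82, adjusted p = 0.12). Its log2 fold change was 1.23 without Ctr male1 (adjusted p = 0.0342), and 0.49 without ISO male2 (adjusted p = 0.389) or without Ctr female1.

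Other muscle and channel genes passed the test in either direction. The ubiquitin ligase adaptor Asb5 was at 12.8, 17.3 and 13.3 CPM in ISO hearts, against 46.7, 40.6 and 49.0 CPM in Ctr hearts (log2 fold change -1.65 ± 0.13), whereas the sarcomere adaptor Klhl40 rose 1.77-fold and the LIM proteins Csrp2 and Pdlim3 2.92-fold and 2.06-fold. Among 21 tubulins 4 were called higher and 3 lower, with 2 and 2 when the replicate number was a block. Over all genes tested, 10.4% were called higher and 3.16% lower. The neuronal-type Tubb3 was at 5.74, 8.05 and 10.3 CPM in ISO hearts, against 1.11, 2.39 and 1.99 CPM in Ctr hearts, and the muscle-enriched Tuba8 at 122, 122 and 141 CPM, against 325, 341 and 248 CPM. Among 45 potassium channel genes 7 were called higher and 6 lower, for example the beta subunit Kcnab2 (3.45-fold higher). The chloride channel protein Clic1 rose 1.75-fold and the sodium pump regulator Fxyd5 2.46-fold, and the calcium-binding protein of the sarcoplasmic reticulum Hrc was 1.80-fold lower. The calcium channel subunit Cacna1c had a log2 fold change of 0.37 ± 0.12, under the threshold.

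Among 66 heat shock and DnaJ genes 5 were called lower and 0 higher (0 lower under cardiomyocyte scaling), such as the mitochondrial chaperonin Hspd1, at 53.6, 46.6 and 42.8 CPM in ISO hearts, against 83.7, 87.6 and 86.8 CPM in Ctr hearts. The endoplasmic reticulum chaperone Hspa5 was at 290, 341 and 326 CPM in ISO hearts, against 492, 776 and 408 CPM in Ctr hearts. Its log2 fold change of -0.81 was -0.49 without Ctr female2, the highest heart.

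Of 81 cytosolic ribosomal protein genes, 35 aminoacyl-tRNA synthetases and 13 Klf factors, 0 were called in either direction by edgeR, DESeq2 or limma-voom, and 7, 13 and 5 had an unadjusted edgeR p below 0.05. Of 77 mitochondrial ribosomal protein genes 1 was called lower, although in 37 of them every ISO heart was below every Ctr heart, against 21.3% of all genes tested. Of 345 zinc finger genes of the Zfp series 1 was called higher and 4 lower, with 18 higher and 0 lower under cardiomyocyte scaling. Of 235 solute carriers 22 were called higher and 10 lower, near the 10.4% and 3.16% of all genes, with 66 and 2 under that scaling. Of 15 endothelial markers 1, the fatty acid binding protein Fabp4, was called lower (1.65-fold, and log2 fold change -0.59 without Ctr male1), and Pecam1 averaged 438 ± 60.9 CPM in ISO hearts and 378 ± 40.4 CPM in Ctr hearts with overlapping groups. Of 20 long noncoding RNAs 4 were called higher, and 0 were with the replicate number as a block. The imprinted H19 was at 199, 207 and 328 CPM in ISO hearts, against 121, 129 and 148 CPM in Ctr hearts (1.84-fold), and Rian rose 1.90-fold, while the calls of Meg3 (adjusted p 0.0536 without ISO male1 and 0.0533 without ISO male2) and Dnm3os (0.0749 to 0.0948 without ISO male1, ISO male2, Ctr female2 or Ctr male1) were lost without single hearts.

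**Figure D4:**
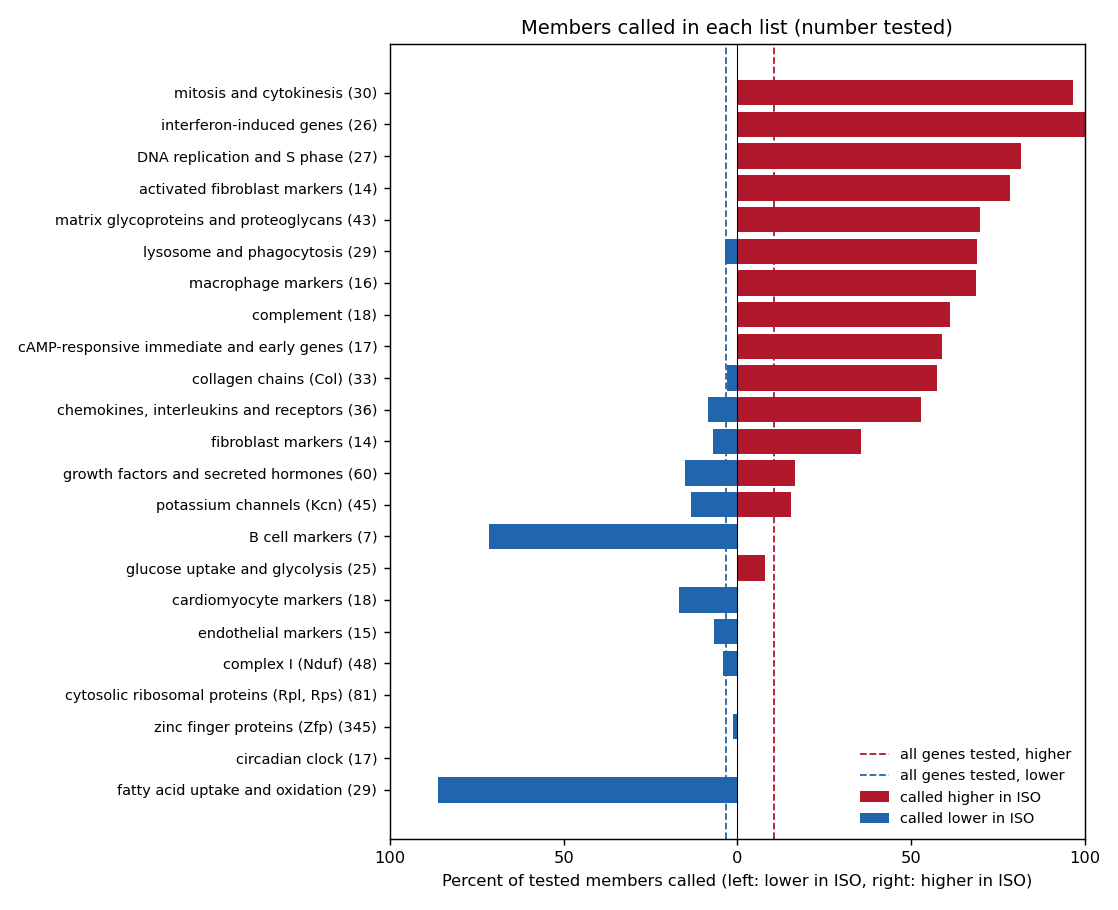
Percent of the tested members of 23 gene lists (number tested in brackets) that were called higher (red, to the right) or lower (blue, to the left) in ISO than in Ctr hearts, with dashed lines at the 10.4% and 3.16% of all genes tested. Mitosis (29 of 30) and interferon-induced genes (26 of 26) reach furthest to the right and fatty acid oxidation (25 of 29) to the left, while no cytosolic ribosomal protein or clock gene was called.

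Clock genes varied between hearts rather than between groups. The output factor Dbp was at 280, 45.7 and 53.8 CPM in ISO hearts, against 24.1, 294 and 322 CPM in Ctr hearts. Per2, of the repressing arm, was at 33.8, 7.05 and 7.92 CPM in ISO hearts, against 4.798, 31.7 and 38.3 CPM in Ctr hearts, and Arntl, of the activating arm, at 5.37, 11.8 and 11.7 CPM, against 16.6, 5.62 and 2.99 CPM. ISO male1, ISO male2 and Ctr female1 thus formed one set of levels, with Dbp and Per2 low and Arntl high, and ISO female2, Ctr female2 and Ctr male1 another. Of 17 clock genes 0 were called by edgeR, DESeq2 or limma-voom and 0 had an unadjusted edgeR p below 0.05, but 6 were called lower without ISO female2. The time of day of sampling is not given in the sources used here, and its part in the result was not tested.

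**Figure D5:**
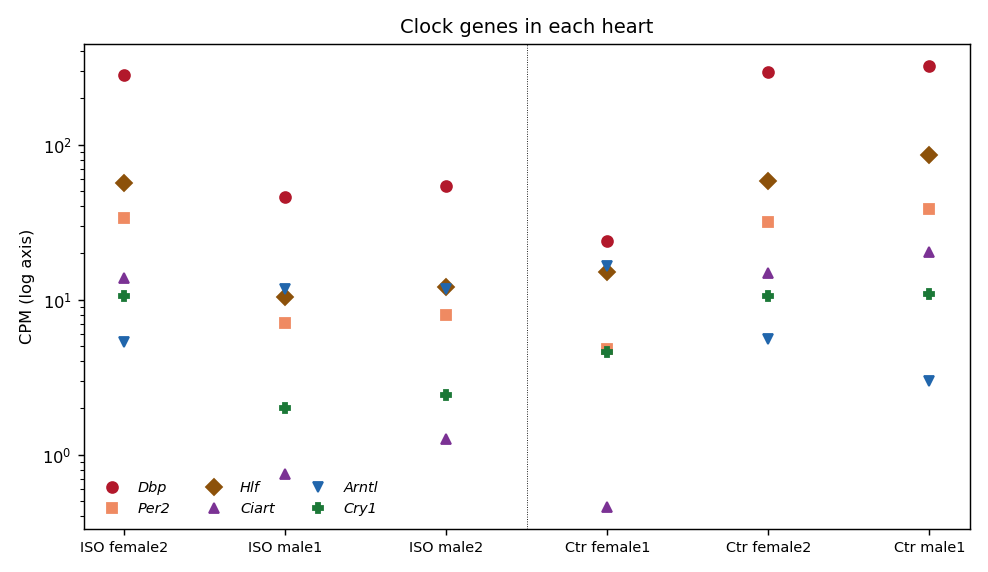
CPM (logarithmic y axis) of 6 clock genes in each of the 3 ISO hearts (left) and the 3 Ctr hearts (right). Dbp, Per2, Hlf, Ciart and Cry1 are lower and Arntl high in ISO male1, ISO male2 and Ctr female1, so both groups hold hearts of either kind.

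Some of these levels can be set beside those of the 3 ISO/PE hearts, which received isoprenaline with phenylephrine at 30 mg/kg/day each for 96 h. The comparisons share samples, so the values on a common scale of 9 hearts are given without a test. Cthrc1 was at 231, 161 and 128 CPM in ISO/PE hearts (female2, male1, male2), 17.8, 58.9 and 61.1 CPM in ISO hearts and 0.655, 1.13 and 0.510 CPM in Ctr hearts. Tnc was at 1280.4, 865 and 1131 CPM in ISO/PE hearts, 37.1, 225 and 217 CPM in ISO hearts and 8.05, 5.72 and 4.08 CPM in Ctr hearts. Cthrc1 and Tnc were thus highest in ISO/PE hearts, with no overlap with ISO hearts, whereas Mfap4, at 425, 330.4 and 301 CPM in ISO/PE hearts, 283, 275 and 360.3 CPM in ISO hearts and 53.7, 54.2 and 47.5 CPM in Ctr hearts, overlapped between the treated groups. The cell cycle kinase Cdk1, at 26.5, 26.4 and 14.6 CPM in ISO/PE hearts, 13.3, 17.2 and 19.1 CPM in ISO hearts and 1.59, 1.595 and 1.94 CPM in Ctr hearts, overlapped between them too. So did Zbp1, at 24.01, 52.5 and 10.7 CPM in ISO/PE hearts, 28.3, 29.8 and 27.1 CPM in ISO hearts and 2.43, 2.72 and 1.94 CPM in Ctr hearts. Myh7 was uneven in ISO/PE hearts at 1908, 129 and 697 CPM, with 104, 135 and 93.3 CPM in ISO hearts and 322, 606 and 336 CPM in Ctr hearts.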

How the data were processed

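RNA-seq of polyadenylated ventricular RNA from 3 ISO and 3 Ctr hearts was read from a deposited table of 29999 transcripts, and 3 ISO/PE hearts from a second table. The authors aligned reads to mm10 with STAR and counted them per RefSeq transcript over exons on both strands with analyzeRepeats.pl, and the deposited counts are raw. The submitters' processing notes also name featureCounts, and no versions are given in the sources used here. For the RPKM values deposited beside them, the authors scaled counts by transcript length in edgeR. These served only as another scale for the principal components. Fold changes and p-values from DESeq2 in the same tables hold the authors' own comparisons and were not used. No transcript in the table had fewer than 21 counts over the 6 hearts, so rarer ones are not covered. Counting ignored strand, so overlapping genes share reads.

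The transcript of highest total count stood for each gene. Genes were filtered with filterByExpr (min.count 10, min.total.count 15), scaled with TMM and tested with edgeR 4.0.16 (R 4.3.3) by the quasi-likelihood test without covariates, with Benjamini-Hochberg adjustment. Standard errors are the log2 fold change over the root of F. Library totals limited precision for genes of few counts, and counting intervals cover counting error only. Alternatives were RLE, total-count and cardiomyocyte-marker scaling, other filters, the longest transcript, sex or replicate number as covariate, DESeq2 1.42.0, limma-voom (limma 3.58.1), glmTreat, all 9 hearts and the omission of each heart. The fit was tested on simulated data. Genes and lists were chosen with earlier results of these data known. Named genes were the 12 highest and 12 lowest called folds at 5 CPM or more without overlap, the 8 largest gains and losses in CPM, and in each list up to 4 called members by adjusted p and the first 3 written. Genes that follow from a count or that mark a limit (Cenpa, Timd4, Folr2, Cemip, Xkr5, Hp and the clock genes) were named after their values were seen. Promoters came from RefSeq (GRCm38.p6) in Python 3.11.15. Groups came from the sample titles. Some genes are not reported here.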

Additional observations from a re-analysis of the deposited data

Results flagged for a closer look

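The difference of ISO over Ctr differed between males and females in 7 genes of 14039 by an interaction term in edgeR (Benjamini-Hochberg adjusted p below 0.05), while 1055 genes had an unadjusted p below 0.05. In this design 2 of the 4 combinations of sex and group hold 1 heart only (ISO females and Ctr males), so each of these values rests on single hearts. Values below are the log2 fold change in males minus that in females, with CPM in ISO hearts (female2, male1, male2) and then in Ctr hearts (female1, female2, male1).

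For Tnc, a matrix glycoprotein, it was 3.36 (adjusted p = 0.0044), with 36.0, 221 and 215 CPM in ISO hearts, against 7.93, 5.62 and 3.99 CPM in Ctr hearts, so the female ISO heart was the lowest of the ISO hearts and above all Ctr hearts. Xist, the RNA of X inactivation, gave -3.22 (adjusted p = 0.0044) with 424, 1.16 and 0.862 CPM in ISO hearts, against 321, 295 and 6.88 CPM in Ctr hearts, at a low level in all males. The remaining 5 genes share a pattern in which Ctr male1 is the highest Ctr heart. Wee1, a kinase that restrains mitosis, gave -1.99 (adjusted p = 0.0083) with 37.7, 19.3 and 21.4 CPM in ISO hearts, against 15.96, 17.5 and 36.0 CPM in Ctr hearts. The natriuretic peptide clearance receptor Npr3 gave -1.74 (adjusted p = 0.0154) with 91.1, 45.5 and 58.2 CPM in ISO hearts, against 59.7, 61.8 and 115 CPM in Ctr hearts. Inmt gave -2.57 (adjusted p = 0.0154), with 3.90, 5.06 and 4.47 CPM in ISO hearts, against 7.84, 8.20 and 58.2 CPM in Ctr hearts. The flavin monooxygenase Fmo2 gave -2.02 (adjusted p = 0.0192) with 61.1, 33.7 and 36.7 CPM in ISO hearts, against 39.9, 57.0 and 114 CPM in Ctr hearts. Timp4 gave -1.67 (adjusted p = 0.0281) with 20.3, 14.7 and 12.2 CPM in ISO hearts, against 55.5, 65.0 and 127 CPM in Ctr hearts.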

How the results depend on the processing

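Counts of genes called higher and lower in ISO than in Ctr hearts were 1461 and 443, and 680 and 93 when the fold threshold was part of the test (glmTreat), 3111 and 138 with libraries scaled to cardiomyocyte markers, 2212 and 1577 at the adjusted p alone (27% of genes tested in either direction), and 885 and 146 at an absolute log2 fold change above 1. Leaving out 1 heart gave 1179 to 1654 higher and 326 to 566 lower, with the lowest counts without ISO male2 and the highest without ISO female2, and 1073 higher and 224 lower genes were called in every such fit. With sex as a covariate 1328 and 403 were called, with DESeq2 1402 and 413 and with limma-voom 1400 and 437. With the replicate number as a block, 1055 and 283 were called. The numbers pair only 2 hearts of each group. In these pairs the deviations from the group means correlated at 0.275 (female2) and 0.041 (male1). For ISO and Ctr hearts of unlike number the values ran from -0.33 to 0.27. What a shared number stands for was not tested. No gene called with TMM and all 6 hearts was called in the opposite direction under any of these settings. Of 244 genes checked one by one, 226 were called, 193 of them in every fit without 1 heart and 172 under every alternative with a test other than glmTreat, for which single genes were not compared, and 0 changed sign while called. Why counts moved with the settings was not tested.

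With 3 hearts per group, a median standard error of 0.27 on the log2 scale among the 3510 genes of lowest level limits what can be called there. Transcripts under 21 counts in all are not covered. Drug, surgery and time cannot be told apart, and the single female ISO heart and single male Ctr heart carry the sexes of their groups.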

Other observations

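Further gene groups moved with the immune and matrix genes. Of 23 tested genes of the MHC region, 10 were called higher and 1 lower, with a median log2 fold change of 0.54. Over all genes tested, 10.4% were called higher and 3.16% lower. The class I gene H2-D1 was at 417, 462 and 480 CPM in ISO hearts, against 275, 304 and 268 CPM in Ctr hearts, with no overlap, whereas the class II gene H2-Aa was at 67.3, 83.3 and 100.6 CPM in ISO hearts, against 82.9, 86.6 and 109 CPM in Ctr hearts, and did not pass the test. Class I genes are close copies of each other, so their reads may be shared. Of 25 integrins 8 were called higher and 0 lower, and of 17 serpins 9 higher and 1 lower. The acute-phase serpin Serpina3n was at 61.2, 174 and 208 CPM in ISO hearts, against 11.8, 16.5 and 28.0 CPM in Ctr hearts (log2 fold change 2.98). Of 16 genes of coagulation and fibrinolysis 8 were called higher and 2 lower (median 0.61).

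Eicosanoid genes went both ways, with 6 called higher and 3 lower of 22. The prostacyclin synthase Ptgis was at 92.9, 81.0 and 104 CPM in ISO hearts, against 31.8, 36.8 and 43.3 CPM in Ctr hearts (log2 fold change 1.31), and every ISO heart was above every Ctr heart. Of 51 G protein-coupled receptors named Gpr or Adgr, 13 were called higher and 0 lower. Of 60 protocadherins 0 were called higher and 1 lower, the endothelial Pcdh12. Their median log2 fold change was 0.22, however. Every ISO heart was above every Ctr heart in 24 of them and below in 3, against 22.6% and 21.3% of all genes tested. Of 49 MAP kinase genes 0 were called higher and 1 lower, the p38 activator Map2k6. These groups were read after their values were seen, and no reason for their direction was tested.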
